A study of Mus musculus with 17 samples.

Results

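Osteoprogenitor cells (OPCs) from the bone of heterozygous +/1013 mice were compared with OPCs from their WT littermates. The 1013 allele of Cxcr4 encodes a receptor that lacks part of its intracellular tail, as in WHIM syndrome, and that is not desensitized normally after ligand binding. All libraries whose labels gave OPCs with the genotype Cxcr4+/1013 (3 libraries) or Cxcr4+/+ (3 libraries, WT) were taken, which were 6 of the 17 in the series, and 16207 of the 55335 genes in the files had enough counts to be tested. The remaining libraries were OPCs with 2 copies of the allele (1013/1013) and skeletal stromal/stem cells (SSCs) of the 3 genotypes. The mice were untreated littermates described as females, aged 8 to 12 weeks. They carried the allele in the germline, so that blood, vessel and bone cells of a +/1013 mouse all had it. Each library came from a pool of 3000 cells, and the study describes a replicate as pooled from 3 mice, so the spread between libraries was a spread between pools. The cells had been sorted from the bone fraction as CD45-, TER119-, CD31-, Sca-1-, CD51+ cells with or without PDGFRα.

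CXCR4 is a G protein-coupled chemokine receptor. Its ligand CXCL12 is made in large amounts by marrow stromal cells and osteoblast precursors, where it holds hematopoietic cells in the marrow, and the receptor tail is where kinases and β-arrestins act to stop the signal. In the osteoblast lineage the transcription factors RUNX2 and SP7 (osterix) drive progenitors towards cells that secrete type I collagen, load the matrix with alkaline phosphatase, osteopontin, bone sialoprotein and osteocalcin, and regulate osteoclasts through RANKL and its decoy receptor osteoprotegerin.

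The 6 libraries held 64099849 to 92683497 gene counts, and the limit of detection was set at 3 counts, or 0.0339 to 0.0530 CPM by library after TMM normalization (CPM being counts scaled by library total), a limit that covers counting error only. The 6 markers of the osteoblast lineage summed to 166319 to 256536 CPM in WT and 120080 to 243608 CPM in +/1013 OPCs, and the type I collagen genes alone took 25.6% to 38.7% of the counts. The sorted surface proteins were also seen at the RNA level, with 76.6 to 108 CPM of Pdgfra in WT and 66.4 to 125 CPM in +/1013, and 23.7 to 55.5 CPM of Itgav (CD51) in WT and 39.1 to 45.8 CPM in +/1013. Of the proteins used to exclude cells, Ly6a (Sca-1) had 0.481 to 5.54 CPM in WT and 0.746 to 5.10 CPM in +/1013. Ptprc (CD45) stood apart in WT replicate 3, at 44.6 CPM against 0.0163 to 2.37 CPM in the other 5 libraries. The 20 leukocyte markers summed to 22493 CPM in WT replicate 3, to 112 and 456 CPM in the other WT libraries and to 123 to 182 CPM in +/1013 (and to 15989 CPM in 1013/1013 replicate 2). Pecam1 (CD31) stood apart in +/1013 replicate 1, at 10.9 CPM against at most 0.373 CPM in the others, and the 11 endothelial markers summed to 63.4 CPM there, against 4.37 to 22.1 CPM in the other 5 libraries. The sex chromosomes also went against the description of the mice. The summed level of 4 Y-linked genes was 57.4 and 20.1 CPM in WT replicates 1 and 3 and 75.4 CPM in +/1013 replicate 1, where Xist, the RNA of the inactive X chromosome, had 0 counts. It was at most 0.0710 CPM in the other 3 libraries of the comparison. How much these differences between libraries contributed to the comparisons was not tested, beyond the fits given with them.

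**Figure D1:**
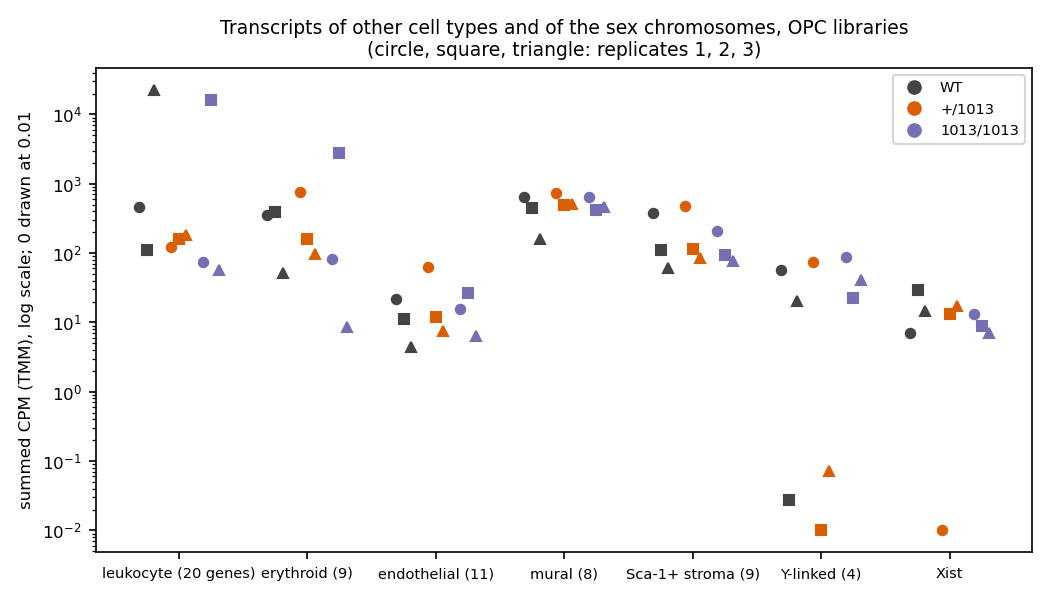
Summed TMM-normalized CPM (log scale) of marker genes of other cell types and of sex chromosome genes in each OPC library, with 1 point per library, coloured by genotype. Leukocyte transcripts stand at 22493 CPM in WT replicate 3 and at 182 CPM or less in the +/1013 libraries, and Y-linked transcripts are present in 3 of the 6 WT and +/1013 libraries.

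The expression of Cxcr4 itself, a gene on chromosome 1 (128588199 to 128592293, GRCm38), did not separate the genotypes. It had 12.7, 8.17 and 5.34 CPM in WT replicates 1 to 3 and 16.2, 5.21 and 3.74 CPM in +/1013 replicates 1 to 3. The ranges overlapped, and in both genotypes replicate 1 was the highest. The log2 fold change was −0.06, with a 95% confidence interval from −1.69 to 1.57. A count per gene does not separate the 1013 from the WT transcript, so the level of Cxcr4 does not check the genotype labels.

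No gene was called between +/1013 and WT OPCs in edgeR's quasi-likelihood test, where a call needed both a difference of 1.5-fold or more and an adjusted p (Benjamini-Hochberg) under 0.05 (0 of 16207 genes, 0%), and the adjusted p was 1 for every gene. An unadjusted p under 0.05 was reached by 331 genes (2.04%), 163 higher (1.01%) and 168 lower (1.04%) in +/1013 OPCs. This count was 656 without WT replicate 1 and between 273 and 420 without any other single library. The 6 libraries did not overlap between the genotypes for 859 genes (5.3%), of which 439 were higher (2.71%) and 420 lower (2.59%) in +/1013. Of the 7375 genes whose mean reached 10 CPM, 272 (3.69%) did not overlap. For a single gene, the exact permutation test of 3 against 3 libraries cannot go below a two-sided p of 0.1, which is the p of a gene without overlap. If all 6 libraries were interchangeable, a share of 0.1 of the genes would on average lack overlap, and the 5.3% was below this. The 2.04% at an unadjusted p under 0.05 was likewise below the share of 0.05 expected in that case. For a gene with a mean of 10 to 100 CPM, the 95% confidence interval reached a median of 0.66 to either side of the log2 fold change, a factor of 1.58, and for one of 1 to 10 CPM it reached 1.40, a factor of 2.64. Smaller differences than these would mostly miss even an unadjusted p under 0.05 in 3 libraries a genotype. A call needed larger ones, as Jrk at 4.07-fold and Itga1 at 3.09-fold were not called by edgeR. DESeq2's Wald test, in contrast, called 74 of 16450 genes (0.45%), 28 higher (0.17%) and 46 lower (0.28%), and 57 of these 74 were at 0 in every library of one genotype and 54 had over 50% of their counts in a single library. Only 5 of them had a mean of at least 5 CPM, namely Itgal, Ric8b, Jrk, Itga1 and Zbtb17, and all but Itgal, a leukocyte integrin, had no overlap between the genotypes.

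**Figure D2:**
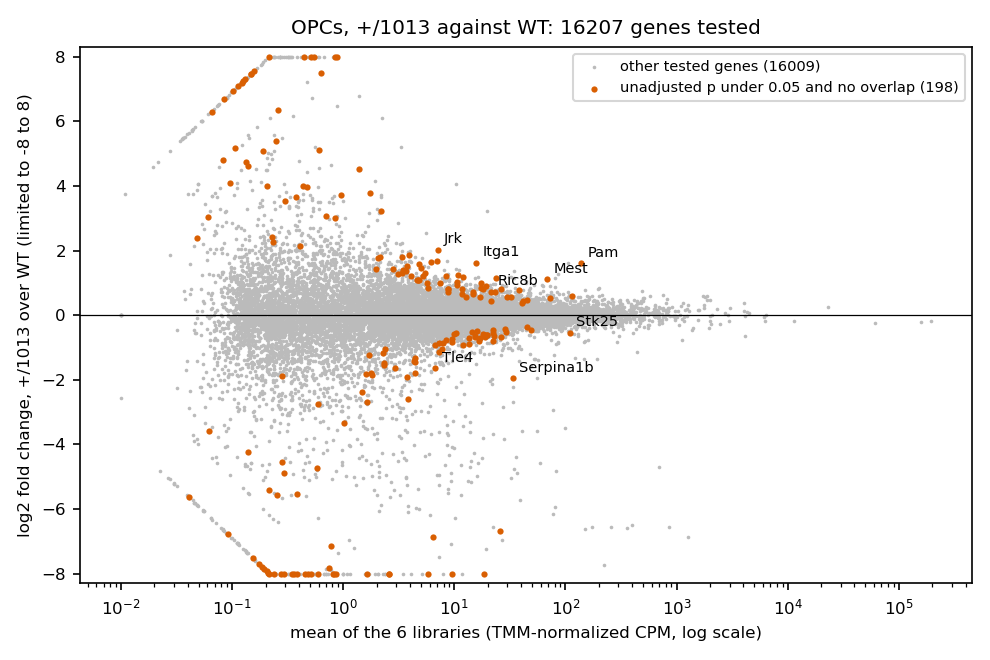
Log2 fold change of +/1013 over WT OPCs against the mean level over the 6 libraries (TMM-normalized CPM, log scale), 1 point per tested gene, with fold changes beyond 8 in size drawn at the edge. The 198 genes with an unadjusted p under 0.05 and no overlap lie on both sides of 0 and mostly at low levels, and 0 genes passed the adjusted threshold.

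Among the 9279 genes whose mean reached 5 CPM, 84 (0.905%) had both an unadjusted p under 0.05 and no overlap, 42 higher (0.453%) and 42 lower (0.453%). The 12 largest differences each way among these 84 are named next, so their separation was how they were chosen, together with Col14a1, Ric8b and Stk25, which were taken on other grounds. All have an adjusted p of 1 in edgeR's test. In bulk samples, fewer cells of a type and less RNA per cell cannot be told apart.

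Itga1 (chromosome 13, 114953096 to 115101964), the α1 subunit of a collagen-binding integrin, had 8.74, 5.66 and 8.66 CPM in WT and 31.1, 25.6 and 14.5 CPM in +/1013 replicates 1 to 3. Every +/1013 library was above every WT library, 3.09-fold higher in the fit, with a log2 fold change of 1.63 (SE 0.33) and an unadjusted p of 0.000914. In 1013/1013 OPCs it had 11.8 to 15.7 CPM, above every WT library. Lamb1, the laminin β1 chain of basement membranes, had 24.7, 11.2 and 7.85 CPM in WT and 41.2, 29.9 and 26.2 CPM in +/1013 (log2 fold change 1.15, SE 0.40). The lowest +/1013 library lay just above the highest WT library. Col14a1, a collagen that binds to the surface of fibrils, had 2.37, 1.69 and 3.23 CPM in WT and 5.60, 8.31 and 7.96 CPM in +/1013 (log2 fold change 1.58, SE 0.43, unadjusted p of 0.00534, adjusted p of 0.0178 in DESeq2, with a range from 0.0178 to 1 over the alternatives). With a mean just under 5 CPM, it was named as a member of the collagen list. It was 1 of 17 collagen genes tested and the only one of them with no overlap, against 5.3% of all tested genes.

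Jrk (chromosome 15, 74702301 to 74709535), which encodes a DNA-binding protein of the nucleus, had 3.75, 3.26 and 1.38 CPM in WT and 9.02, 13.1 and 12.1 CPM in +/1013. It had the largest log2 fold change of the 12, 2.03 (SE 0.43), and 1013/1013 OPCs had 5.39 to 9.11 CPM. Pam (chromosome 1, 97795114 to 98095646), the enzyme that amidates the ends of secreted peptides, had 137, 43.5 and 24.7 CPM in WT and 203, 218 and 207 CPM in +/1013. The 3 +/1013 libraries were close to each other while the WT libraries were far apart, and the log2 fold change of 1.61 (SE 0.55) became 2.63 without WT replicate 1. Mest, a gene expressed from the paternal copy, had 50.5, 55.4 and 24.1 CPM in WT and 91.5, 87.1 and 102 CPM in +/1013 (log2 fold change 1.11, SE 0.34). The other genes in the 12 largest differences upwards were Bbs1 (1.67), a subunit of the BBSome of cilia, the lipid enzymes Acsbg1 (1.64) and Elovl4 (1.30), Polr1a (1.26), the largest subunit of RNA polymerase I, Wars2 (1.21), a mitochondrial tRNA synthetase, Phka2 (1.20), a subunit of phosphorylase kinase, and the transcription factor Zbtb17 (1.18), with log2 fold changes in brackets.

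Ric8b (chromosome 10, 84917616 to 85018337), a chaperone of stimulatory G protein α subunits, was outside the rule for named genes and was picked after its values had been seen. It had 15.1, 16.5 and 16.5 CPM in WT and 26.3, 25.9 and 27.8 CPM in +/1013 replicates 1 to 3. The libraries of each genotype lay close together and the groups were well apart, with a log2 fold change of 0.73 (SE 0.16) and an unadjusted p of 0.0018. The 1013/1013 OPCs had 21.4 to 26.9 CPM. DESeq2 called it with an adjusted p of 6.23e-06, against 0.886 to 1 under the edgeR alternatives, while its log2 fold change ran from 0.70 to 0.75 under every alternative.

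Stk25 (chromosome 1, 93619751 to 93658659), a serine/threonine kinase, was in a fixed set of genes to name, chosen with earlier results of these data known. It had 136, 130 and 126 CPM in WT, 91.3, 81.4 and 96.8 CPM in +/1013 and 38.5, 34.8 and 37.1 CPM in 1013/1013 OPCs. The 3 genotypes did not overlap, in order of the number of 1013 alleles, and the log2 fold change of +/1013 over WT was −0.54 (SE 0.14, unadjusted p of 0.00445, adjusted p of 1). In DESeq2 its adjusted p was 0.000667, at under 1.5-fold, and the adjusted p ranged from 0.000667 to 1 over all alternatives. Tle4, a corepressor that acts with Wnt and Runx factors, had 11.4, 13.9 and 5.30 CPM in WT and 5.25, 1.07 and 3.59 CPM in +/1013, so that the closest libraries nearly met (log2 fold change −1.63, SE 0.58). Eya3, a phosphatase and transcriptional coactivator, had 6.65 to 12.6 CPM in WT and 3.66 to 6.29 CPM in +/1013 (−1.04). Parp8, of the poly(ADP-ribose) polymerase family, had 7.73, 9.98 and 12.4 CPM in WT and 4.52, 4.36 and 4.72 CPM in +/1013 (−1.14, SE 0.36). In 1013/1013 OPCs Parp8 and Tle4 had 6.52 to 14.6 and 8.52 to 11.2 CPM, and every value but the lowest of Parp8 was inside or above the WT range.

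Serpina1b, an α1-antitrypsin gene whose near-identical copies make its count uncertain, had 88.6, 42.5 and 30.2 CPM in WT and 14.6, 6.74 and 20.3 CPM in +/1013 (log2 fold change −1.95, SE 0.64). The fold was −1.37 without WT replicate 1. Smaller differences downwards were those of Ppfia2 (−0.93), a liprin of synapses, Cep83os (−0.92), Smug1 (−0.89), a uracil-DNA glycosylase, and Ankrd49 (−0.87). Cep83os is a noncoding RNA annotated to a bidirectional promoter, and the protocol does not mark strand. The other 4 of the 12 largest differences downwards were Ly6g, Wfdc21, Padi4 and Ly6c2, genes of neutrophils and monocytes. Their fitted log2 fold changes ran from −11.6 to −6.67, and Ly6g had 1.34, 0.247 and 56.1 CPM in WT replicates 1 to 3 and at most 0.0118 CPM in +/1013. These 4 genes were highest in WT replicate 3, the library rich in leukocyte transcripts, and without it the fitted values ran from −7.05 to −1.86.

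The smallest unadjusted p-values, apart from Itga1, belonged to genes near the limit of detection in 1 genotype. Serpina3c, a serine protease inhibitor of a multigene family, had 0 counts in the 3 WT libraries and 50, 49 and 104 counts in +/1013. Its mean in +/1013 was at least 16.8-fold higher when the WT libraries are set at the highest of their limits of 3 counts. The folds that follow are also of means over such a limit, so the fold of a single library can be smaller. Adcy5, an adenylyl cyclase, had 0 counts in WT and 183, 44 and 168 in +/1013 (at least 31.7-fold higher), and 4933425M03Rik had 0 and 14 to 29 counts (at least 5.54-fold higher). In the other direction, Qrfp, a neuropeptide precursor, had 30, 31 and 22 counts in WT and 0 in +/1013 (at least 7.88-fold lower). In 1013/1013 OPCs Serpina3c had 1.03 to 2.79 CPM, against 0.641 to 1.23 CPM in +/1013. Serpina3c was called by edgeR in the fit of all 17 libraries, with an adjusted p of 0.00407 (adjusted p-values from 5.82e-07 to 1 over all alternatives).

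**Figure D3:**
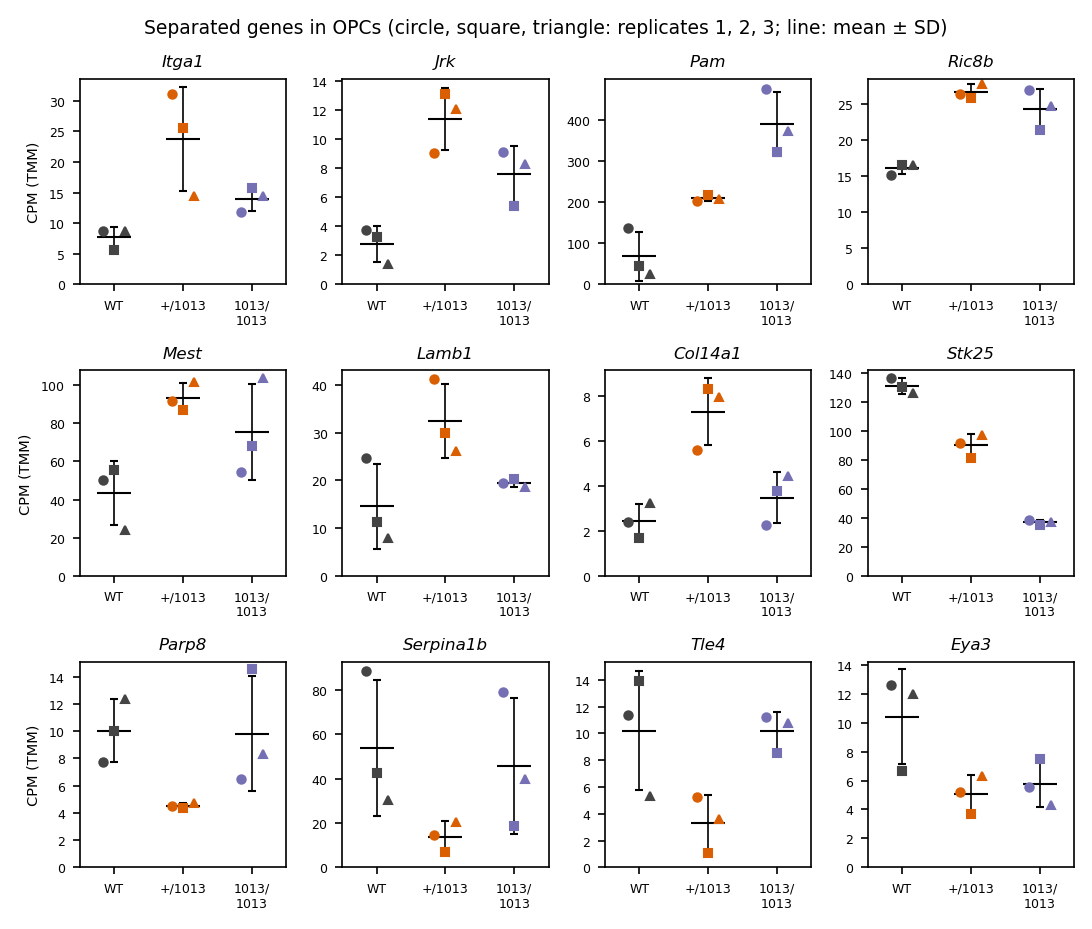
TMM-normalized CPM of 12 genes in the 9 OPC libraries, by genotype, with the mean and SD of 3 libraries. In each panel the 3 +/1013 libraries lie wholly above or wholly below the 3 WT libraries, and Stk25 and Pam step further in 1013/1013.

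The genes of osteoblast differentiation showed small differences in both directions. Of 14 osteoblast transcription factors, 4 were higher and 10 lower in +/1013, with a median log2 fold change of −0.11 (0.05 without +/1013 replicate 1, −0.024 without WT replicate 2 and −0.032 without WT replicate 3), against 49.4% of all tested genes higher and a median of −0.00 over all genes. Of the 14, 0 were called and 0 had an unadjusted p under 0.05. Runx2 had 45.9, 52.7 and 57.4 CPM in WT and 63.6, 60.0 and 61.9 CPM in +/1013. All 3 +/1013 libraries were above the WT libraries, but by little (log2 fold change 0.25, SE 0.14, unadjusted p of 0.114). Sp7 had 150, 335 and 303 CPM in WT and 153, 281 and 245 CPM in +/1013, and overlapped (−0.22, 95% interval −1.04 to 0.61). Atf4, a factor of amino acid supply in osteoblasts, had a log2 fold change of −0.17. Dlx6, a homeobox factor picked after its values had been seen, was the other one without overlap, at 2.87 to 4.03 CPM in WT and 0.403 to 2.77 CPM in +/1013. Of the 14, 2 thus had no overlap, against 5.3% of all tested genes.

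For the secreted matrix, 12 of 16 non-collagen bone matrix genes were lower in +/1013, with a median of −0.18, 0 called and 0 without overlap. The list's median was −0.00 without WT replicate 3, so the lower values rested on that library. Bglap, osteocalcin, shows this: it had 668, 1025 and 2519.8 CPM in WT and 733, 1085 and 679 CPM in +/1013, with a log2 fold change of −0.75 that became −0.03 without WT replicate 3. Bglap2 gave −0.78 and −0.09, and as near-identical neighbours both have uncertain counts. Spp1 (osteopontin) had 11587, 9434 and 14948 CPM in WT and 11296, 11446 and 9156 CPM in +/1013 (−0.17, 95% interval −1.19 to 0.85). Ibsp, bone sialoprotein, had 2205, 5127 and 5232 CPM in WT and 2076, 5733 and 5535 CPM in +/1013 (0.09, 95% interval −1.23 to 1.40), and in both genotypes replicate 1 was far below the other libraries. Sparc, osteonectin, had a log2 fold change of −0.25. Alpl, the alkaline phosphatase of mineralizing cells, had 1007, 1154 and 1555 CPM in WT and 1061, 1422 and 1544 CPM in +/1013 (0.12, 95% interval −0.54 to 0.77), and of the 8 mineralization genes 4 were higher and 4 lower. Of the 17 collagen genes, 8 were higher and 9 lower. Col1a1 had 162242 to 246870 CPM in WT and 115993 to 235027 CPM in +/1013 (−0.19, SE 0.50), and Col1a2 gave −0.20 (SE 0.48).

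**Figure D4:**
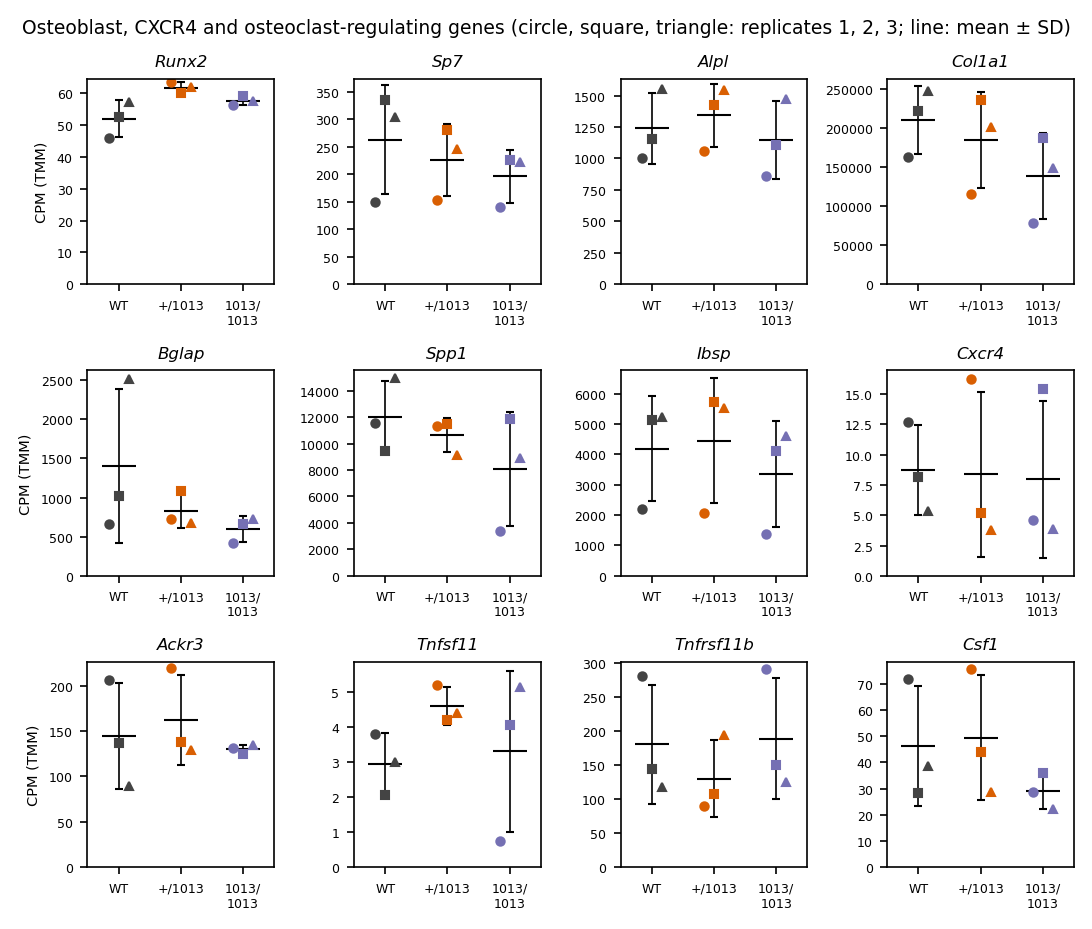
TMM-normalized CPM of osteoblast genes, Cxcr4 and Ackr3, and osteoclast-regulating genes in the 9 OPC libraries, by genotype, with the mean and SD of 3 libraries. WT and +/1013 libraries overlap in all panels except Runx2 and Tnfsf11, and the WT mean of Bglap is raised by replicate 3.

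Among the CXCR4 signaling genes, 7 of 22 were higher and 15 lower in +/1013 (median −0.10, 0.16 without WT replicate 3 and −0.27 without +/1013 replicate 1). Ackr3, the atypical receptor that scavenges CXCL12, had 206, 137 and 89.7 CPM in WT and 219, 138 and 129 CPM in +/1013 (0.17, 95% interval −0.56 to 0.90). The ligand Cxcl12 had 128, 41.4 and 88.1 CPM in WT and 263, 91.9 and 25.3 CPM in +/1013, with both extremes in +/1013, and its log2 fold change of 0.56 became −0.55 without +/1013 replicate 1. Gnai2, an inhibitory G protein α subunit that couples to the receptor, had a log2 fold change of −0.09. Rgs5, a G protein regulator known from pericytes, was the one member with an unadjusted p under 0.05, and it came from 1 library, with 100 CPM in +/1013 replicate 1 and 2.01 to 4.06 CPM in the other 5. Its log2 fold change of 3.22 became −0.41 without that library. Of 18 chondrocyte genes 17 were higher (median 0.26, −0.25 without +/1013 replicate 3). Of 13 hematopoietic niche genes 11 were higher (median 0.32, −0.34 without +/1013 replicate 1), and the adhesion molecule Vcam1 had 75.7 to 434 CPM in WT and 143 to 565 CPM in +/1013.

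Of 14 osteoclast-regulating factors, 8 were higher and 6 lower in +/1013 (median 0.06), with 0 called. The median ran from −0.30 without +/1013 replicate 1 to 0.66 without WT replicate 1, so the list had no stable direction. Tnfsf11, which encodes RANKL, had 3.82, 2.06 and 3.01 CPM in WT and 5.2, 4.2 and 4.4 CPM in +/1013. The groups did not overlap, but the difference was within the error of the fit (log2 fold change 0.64, SE 0.65, unadjusted p of 0.355). Tnfsf11 was the only one of the 14 without overlap, against 5.3% of all tested genes. Its decoy receptor osteoprotegerin, Tnfrsf11b, had 280, 144 and 118 CPM in WT and 89.6, 107 and 194 CPM in +/1013 (−0.47, SE 0.46). Csf1, the growth factor of osteoclast precursors, had 28.4 to 71.9 CPM in WT and 28.9 to 75.7 CPM in +/1013. The chemokine Ccl2 had 0.509 to 5.43 CPM in WT and 0.580 to 7.39 CPM in +/1013, and Il12a, an interleukin subunit, had 5.65 to 8.63 and 6.17 to 7.55 CPM. For Csf1, Ccl2 and Il12a the log2 fold changes were 0.10, 0.23 and −0.12. In 1013/1013 OPCs Il12a had 2.21 to 2.83 CPM, below all 6 libraries of the other genotypes.

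For the signalling pathways of the skeleton, no member was called. Of 38 Wnt pathway genes, 23 were higher and 15 lower (median 0.08). Of the 38, 5 had no overlap, against 5.3% of all tested genes. These 5, named after their values had been seen, had different roles. The receptor Fzd3 had 3.86 to 6.68 CPM in WT and 6.85 to 13.0 CPM in +/1013 (log2 fold change 0.77), and the ligand Wnt4 had 24.7 to 33.1 and 19.2 to 23.2 CPM (−0.35). The secreted inhibitors went both ways. Dkk2 (at most 0.395 CPM in WT, 0.667 to 2.00 CPM in +/1013) and Sfrp2 (0 to 4.01 CPM in WT, 4.07 to 19 CPM in +/1013) were higher, and Dkk3 (59.6 to 71.1 and 48.6 to 56.6 CPM) was lower. Of 46 BMP and TGF-β genes, 28 were higher and 18 lower (median 0.04, from −0.08 without WT replicate 3 to 0.29 without WT replicate 1). The BMP antagonist Chrd had an unadjusted p of 0.0382, with 8.90, 11.6 and 10.2 CPM in WT and 17.1, 14.9 and 13.2 CPM in +/1013 (0.56, SE 0.23), against 8.43 to 11 CPM in 1013/1013. In the FGF list 15 of 17 and in the IGF list 14 of 16 genes were higher, with medians of 0.25 and 0.32, and the growth factor Fgf2 had 0.619 to 1.61 CPM in WT and 1.81 to 3.56 CPM in +/1013. Without WT replicate 3 the FGF median was −0.06 and the IGF median 0.11. In the Hedgehog and PTH list the target Gli1 had 2.96 to 6.10 CPM in WT and 1.85 to 2.91 CPM in +/1013, and in the Notch list the modifier of receptors Lfng had 0.495 to 1.54 and 1.64 to 4.80 CPM. The metalloproteinase Mmp14, which cleaves pericellular collagen, had 312 to 319 CPM in WT and 325 to 386 CPM in +/1013 (0.16).

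Transcripts encoded by mitochondrial DNA formed the one list in the plot of list medians whose libraries did not overlap between the genotypes. Of its 12 tested members, subunits of the respiratory chain and ATP synthase, 11 were higher in +/1013 and 5 had no overlap, against 5.3% of all genes, with a median log2 fold change of 0.36, 0 called and 1 at an unadjusted p under 0.05. That gene, mt-Nd2 of complex I, had 50, 68.7 and 57.6 CPM in WT and 97.4, 89.1 and 71.0 CPM in +/1013 (0.55, SE 0.23, unadjusted p of 0.0429). The other 4 without overlap were mt-Nd1 (297 to 426 CPM in WT, 464 to 531 CPM in +/1013), mt-Nd5 (211 to 239 and 248 to 324 CPM), mt-Nd6 (9.45 to 13.9 and 15.0 to 15.8 CPM) and mt-Cytb (837 to 1101 and 1218 to 1339 CPM), and mt-Co1 overlapped (493 to 756 and 473 to 860 CPM). As a median over the list, log2(CPM + 0.5) was −0.16, 0.06 and 0.12 from the WT mean in WT replicates 1 to 3 and 0.32, 0.26 and 0.30 in +/1013 replicates 1 to 3. The list's median fold stayed between 0.24 and 0.42 under every alternative, each library left out included. Whether the 12 members vary independently between libraries was not tested, so the 5 without overlap cannot be counted as separate results. Of all counts, mitochondrial genes took 0.242% to 0.284% in WT, 0.310% to 0.440% in +/1013 and 0.277% to 0.426% in 1013/1013, so that the last overlapped both other groups. The share of reads on no gene was highest in +/1013 replicate 1 (2.19%, against 1.15% to 1.71% in the other 5 libraries), and its part in the result was not tested.

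The nuclear genes of the same complexes and the cytosolic ribosomal proteins were mostly on the other side of 0. Of 83 nuclear oxidative phosphorylation genes, 73 were lower and 10 higher in +/1013 (median −0.20), with 0 without overlap and 0 called, and Atp5b of the ATP synthase had a log2 fold change of −0.06. Of 82 ribosomal protein genes, 67 were lower and 15 higher (median −0.15). Without WT replicate 3 these medians were −0.02 and −0.04, and without +/1013 replicate 3 they were −0.09 and −0.04. Of the 82, 3 had no overlap, against 5.3% of all tested genes. Rps20 and Rpl7a, picked after their values had been seen, were among them, with 26.2 to 29.9 CPM in WT and 21.2 to 26.1 CPM in +/1013 for Rps20 (−0.23) and 7.42 to 8 and 6.72 to 7.07 CPM for Rpl7a (−0.16).

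The cholesterol synthesis list had 22 of 24 genes higher and 2 lower in +/1013 (median 0.30, from 0.16 to 0.46 over the alternatives), with 0 called. Its libraries overlapped, with list medians of −0.20 to 0.28 in WT and 0.04 to 0.54 in +/1013. The regulator Srebf2 and the enzyme Cyp51 had log2 fold changes of 0.12 and 0.25. The enzyme Fdps, the only one of the 24 without overlap, against 5.3% of all tested genes, had 4.28 to 4.63 CPM in WT and 4.75 to 7.04 CPM in +/1013. All 26 immediate-early genes were fitted higher (median 0.21), among them Fos (0.14) and Egr1 (0.18), but the library medians of the list overlapped widely, from −0.58 to 0.60 in WT and from −0.18 to 0.47 in +/1013. Without WT replicate 3 the list's median was 0.03. Of 12 imprinted genes 10 were higher (median 0.42), Mest among them. The median was 0.16 without WT replicate 3 and 0.81 without WT replicate 2, and the library medians overlapped, reaching 0.53 in WT and starting at 0.33 in +/1013.

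Of 42 S phase genes 33 were lower and 9 higher in +/1013 (median −0.42), with 0 called. The helicase subunit Mcm6 had 18.6, 41.9 and 91.5 CPM in WT and 21, 29.6 and 27.7 CPM in +/1013, and the clamp loader subunit Rfc2 and the ribonucleotide reductase subunit Rrm1 had log2 fold changes of −0.28 and −0.24. Without WT replicate 3 the list's median was −0.01. Dtl, an adaptor for the destruction of replication licensing factors, and the centromere protein Cenpu had no overlap, with 5.87 to 11.2 and 0.839 to 1.80 CPM in WT and 0.743 to 5.03 and 0.403 to 0.830 CPM in +/1013. These were the only 2 of the 42, against 5.3% of all tested genes, and Dtl was named after its values had been seen. Of 52 G2/M genes 34 were lower and 18 higher (median −0.15, 0.30 without WT replicate 3 and 0.0062 without +/1013 replicate 1). The large kinetochore proteins went the other way, with unadjusted p-values of 0.0286 for Cenpf and 0.0416 for Cenpe. Cenpf had 0.0452, 0.522 and 0.689 CPM in WT and 2.24, 8.59 and 1.04 CPM in +/1013, and Cenpe had 0.643, 0 and 0.0530 CPM in WT and 1.22, 2.07 and 6.37 CPM in +/1013. Ckap2 was also higher without overlap and the CDK subunit gene Cks2 lower. Hoxa4 (0.0113 to 0.106 CPM in WT and 0.320 to 0.474 CPM in +/1013) was the one Hox gene with an unadjusted p under 0.05, of 26 tested, and 13 of these were higher.

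**Figure D5:**
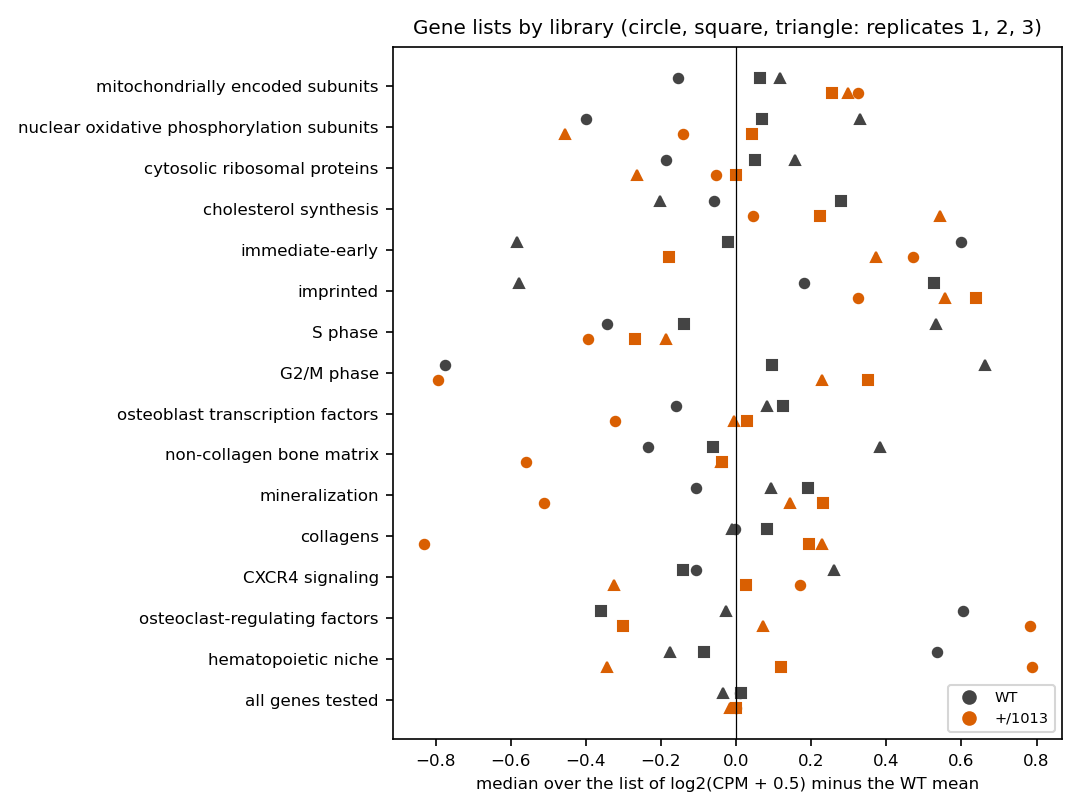
Median over each gene list of log2(CPM + 0.5) minus the mean of the WT libraries, with 1 point per WT or +/1013 library. The mitochondrially encoded subunits lie at 0.26 to 0.32 in +/1013 and at −0.16 to 0.12 in WT, while the libraries of the other lists overlap.

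Markers of other cells depended on single libraries to differing degrees. Of 19 leukocyte markers tested, 18 were lower in +/1013 (median −4.71), and S100a8, S100a9 and Itgam had unadjusted p-values of 0.0477, 0.0480 and 0.0218. S100a8, a calcium-binding protein of neutrophils, had 10.3, 2.20 and 1009.7 CPM in WT and 3.42 to 3.92 CPM in +/1013, and the list's median was −0.80 without WT replicate 3. Of 22 interferon-stimulated genes 13 were higher and 9 lower in +/1013 (median 0.06, −0.28 without +/1013 replicate 1 and 0.32 without WT replicate 1). Oas1a, the 1 member with an unadjusted p under 0.05, had 0.169, 0.179 and 4.24 CPM in WT and at most 0.0163 CPM in +/1013. All 8 mural markers were fitted higher (median 1.20, 0.52 without +/1013 replicate 1 and 1.85 without WT replicate 1), and they summed to 160 to 641 CPM in WT and 496 to 744 CPM in +/1013. With the libraries rich in leukocyte transcripts left out (WT replicate 3 and 1013/1013 replicate 2), 0 genes were called and 319 had an unadjusted p under 0.05. With a factor for the presence of Y-linked transcripts, 0 were called and 278 had such a p.

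The values of 1013/1013 OPCs are given beside those of +/1013 OPCs as a description, since both are set against the same WT libraries. Between 1013/1013 and +/1013 OPCs 0 of 16207 genes (0%) were called by edgeR, 513 (3.17%) had an unadjusted p under 0.05 and DESeq2 called 80. In 20 of the 16207 genes the libraries of the 3 genotypes did not overlap and stood in order of the number of alleles, 12 higher and 8 lower with each allele. How many genes shuffled genotype labels would put in such an order was not computed, so this count does not show a dependence on allele number. Of these 20, 5 were on chromosome 1, the chromosome of Cxcr4, which held 6.21% of the tested genes, and 4 of the 5 had a mean of at least 5 CPM, namely Stk25, Pam, Wdfy1 and Orc2. Wdfy1 (chromosome 1, 79702262 to 79776143), an adaptor of endosomal receptors, had log2 fold changes of 1.00 in +/1013 and 1.75 in 1013/1013 over WT, and Pam had 1.61 and 2.52. For Stk25 the values were −0.54 and −1.83, and for Orc2 0.12 and 0.41. Wdfy1 and Orc2 were named after their values had been seen. Over all of chromosome 1, 69 of 1007 genes had no overlap between +/1013 and WT (6.85%, against 5.3% of all genes). The medians of the lists for +/1013 and 1013/1013 over WT were 0.36 and 0.28 for mitochondrially encoded subunits, 0.30 and 0.60 for cholesterol synthesis, −0.11 and −0.31 for osteoblast transcription factors, −0.18 and −0.32 for bone matrix and −0.42 and 0.04 for S phase.

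The effect of 1 copy was also set against that in SSCs, the less mature cells of the series, in a fit of all 17 libraries. The difference of the effects passed the threshold for 17 of 20238 genes (0.084%), of which 13 were cytosolic ribosomal protein genes, with the larger log2 fold change in SSCs. The SSC libraries themselves differed between the genotypes. Genes detected numbered 21449 to 22599 in WT and 17808 to 19227 in +/1013 SSCs, and reads on no gene were 3.68% to 4.15% and 1.53% to 1.80%. The part of these library-wide differences in the contrast was not tested. For Rps20 the log2 fold change in SSCs was 1.37, and the difference from OPCs was 1.59. For Serpina3c it was 1.96 in SSCs and 9.02 in OPCs in this fit. Runx2 and Zbtb17 did not pass, with log2 fold changes in SSCs of −1.37 and −0.21.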

How the data were processed

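OPCs and SSCs had been sorted from pooled bone fractions and sequenced with a SMART-Seq v4 and Nextera XT protocol, which does not mark strand. Per the labels and methods, the authors checked reads with FastQC, aligned them with STAR to mm10 and counted them per gene with HTSeq; versions, annotation and settings are not given in the sources used here. The deposited values are whole-number counts, not normalized, with 5 special counters that stayed out of library sizes and tests (reads on no gene were 1.15% to 2.19% of the 6 libraries compared). Symbols and coordinates came from GENCODE M21 (GRCm38), which matched 55154 of 55335 identifiers. The 9 OPC libraries entered one edgeR 4.0.16 quasi-likelihood fit (R 4.3.3, legacy = TRUE, no covariates) after filterByExpr and TMM, the main design, and all p-values and adjusted p-values without another tool's name come from it. CPM values are TMM-normalized. Calls needed 1.5-fold or more and an adjusted p (Benjamini-Hochberg) below 0.05. The SE of a log2 fold change is its size over the square root of F, and the 95% interval comes from the t distribution of that fit. DESeq2 1.42.0, other normalizations, filters, sample sets and leaving out libraries were alternatives. Scripts were tested on simulated data.

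Members of the comparison, the gene lists and the genes always named were chosen with earlier results of these data known. The rule for named genes took the 12 largest differences each way among genes of at least 5 CPM with an unadjusted p under 0.05 and no overlap. It also took the 6 smallest p-values, and list members with an unadjusted p under 0.05 or the highest level in their list. The genes always named were bone, CXCR4 and sort marker genes, and Stk25, which is none of these. Some genes that the rule takes are not reported here. Deviations of same-numbered WT and +/1013 libraries had r of 0.49, 0.14 and 0.16 over 9346 genes (replicates 1 to 3). WT replicate 2 with +/1013 replicate 3 gave 0.13 and WT replicate 3 with +/1013 replicate 2 gave 0.14. Replicate 1 with another number gave −0.32 to −0.22, so only replicate 1 stood apart. Same-numbered WT and 1013/1013 libraries gave 0.49, −0.51 and −0.26. The numbers were taken as pairs in an alternative with a replicate block, and no source states what a number marks. Libraries of 1 genotype differed by more than sampling noise, and p-values measure the spread between pools. Serpina1b, Serpina3c, Bglap and Bglap2 share near-identical copies, whose reads the counting could split.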

Additional observations from a re-analysis of the deposited data

Results flagged for a closer look

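The +/1013 effect differed between SSCs and OPCs, by the interaction term of edgeR's fit of all 17 libraries, for 3 of the genes named here. WT and +/1013 SSC libraries also differed in genes detected and in reads on no gene, and the part of this in the result was not tested. For Rps20 the effect in SSCs minus that in OPCs was 1.59 on the log2 scale (adjusted p = 0.0449) and for Rpl7a it was 1.35 (adjusted p = 0.0449). For Serpina3c it was −7.05 (adjusted p = 0.0458), where the OPC value comes from 0 counts in the WT libraries and so depends on the prior count.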

How the results depend on the processing

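In edgeR's test 0 genes were called under 18 of 20 alternatives. DESeq2 called 74 genes and the fit of all 17 libraries called 1, Serpina3c. The number of genes at an unadjusted p under 0.05 (331) became 663 in DESeq2, 602 with no filter, 157 with at least 10 counts in every library, 217 in a fit of the 6 libraries and 683 in a fit of all 17. It ran from 273 to 656 when 1 library was left out, with 656 without WT replicate 1 and 0 genes called each time. Genes without overlap numbered 272 at a mean of at least 10 CPM. DESeq2 called 80 genes between 1013/1013 and +/1013 (edgeR 0) and 523 for SSC minus OPC (edgeR 17). The cause of these changes was not tested, except that filters and sample sets change the genes and libraries tested. With the replicate block 0 genes were called and 353 had an unadjusted p under 0.05 (288 on the 6 libraries), and the block changed no call.

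Log2 fold changes of 24 named genes changed sign under at least 1 alternative, large fitted values such as those of Rgs5 and Pecam1 among them. Without the libraries rich in leukocyte transcripts they were −0.020 for Vcam1, −0.079 for Ackr3, −0.11 for Srebf2, 0.085 for Gnai2, 5.5e-05 for Il12a, 0.015 for Spp1, −0.13 for Fos, −0.19 for Itgav, −0.18 for Egr1 and −0.021 for Csf1. With the Y-linked factor they were 0.44 for Ly6a, 0.025 for Il12a, −0.033 for Pdgfra and −0.35 for Ibsp. With the replicate block Pdgfra was at −0.013, and with the block on the 6 libraries Pecam1 was at −0.43. With 1 library left out, the ranges crossing 0 were −0.10 to 0.54 for Ackr3, −0.12 to 0.021 for Atp5b, −0.88 to 0.95 for Ccl2, −0.41 to 0.063 for Col1a1, −0.39 to 0.051 for Col1a2, −0.34 to 0.58 for Csf1, −0.55 to 1.05 for Cxcl12, −0.96 to 0.34 for Cxcr4, −0.20 to 0.83 for Egr1, −0.13 to 0.52 for Fos, −0.19 to 0.085 for Gnai2, −0.20 to 0.44 for Ibsp, −0.19 to 0.41 for Itgav, −0.22 to 0.25 for Pdgfra, −4.67 to 4.93 for Pecam1, −0.41 to 3.77 for Rgs5, −0.48 to 0.0094 for Sp7, −0.32 to 0.015 for Spp1, −0.11 to 0.42 for Srebf2, −0.88 to 0.015 for Tnfrsf11b, −0.40 to 1.25 for Vcam1 and −0.037 to 0.39 for mt-Co1. Of 1894 values of named genes under alternatives, 1833 kept direction and side of the threshold, and 796 of 835 list medians moved by less than the spread between libraries. As no gene was called in the main fit, staying on that side of the threshold says little. A list median could also move by less than this spread and change sign. The chondrocyte list did so, from 0.26 to −0.25 without +/1013 replicate 3. Depth limits genes near 3 counts a library.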
